A study of Mus musculus with 6 samples.

Results

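The genes described here are 30 genes of DNA replication and S phase, the part of the cell cycle in which chromosomes are copied. They were chosen by name and found by Ensembl identifier in a table of 56750 gene rows, where all 30 had a row, a value above 0 in every library and a place among the 13496 genes tested. RNA was sequenced from bone marrow cells labelled Lin- Sca1+ cKit+ (LSK), the sorted fraction that holds blood stem cells and multipotent progenitors. The mice were C57BL/6, with 3 libraries from mice given 2.5% dextran sulfate sodium (DSS) for 5 days to induce colitis, called DIC, and 3 from control mice. DSS is a polymer that damages the colon lining, and the labels give no age, no sex and no genetic change for either group. The comparison asks how colitis is reflected in the marrow progenitors.

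Replication starts from origins that are licensed in G1, when CDC6 and CDT1 load the MCM helicase as an inactive ring. In S phase CDC45 and the GINS complex join the ring to form the active helicase, polymerases and their sliding clamp PCNA copy the opened strands, and ribonucleotide reductase and thymidylate synthase supply the building blocks. Cyclin E and the E2F transcription factors drive this transition, and most genes of the programme are transcribed together under E2F control. In the marrow, stem cells divide rarely while committed progenitors cycle fast, so bulk levels of these genes depend on which cells are present.

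The values are TPM, relative transcript abundances scaled by transcript length and by the library total, and they keep no sequencing depth. In a bulk sample, fewer cells in S phase and less RNA per cell cannot be told apart. The libraries are named after the table's columns as DIC 1 to 3 and control 1, 2 and 4. Across them 20474 to 22720 genes lay above 0 TPM. The sort genes Kit, which encodes the receptor cKit, and Ly6a, which encodes Sca1, lay at 54.2 to 99.5 and at 15.5 to 49.9 TPM. Kit averaged 89.4 ± 6.57 TPM in DIC and 74.0 ± 23.2 in control, and Ly6a 19.4 ± 4.14 and 34.2 ± 15.2 (SD, with n = 3 per group), both overlapping. Of the 11 tested sort and stem cell genes 6 were negative as deposited (median -0.19), against 5 of 12 when the late neutrophil genes were left out of the total (median 0.05). Cd34, Cd48 and Gata2 were lower in every DIC library as deposited (3 of 11, beside 18.4% of all tested genes). The values of the 12 listed genes ran from 0.07 to 260.5 TPM, and Slamf1 was too low to test as deposited (0.80 to 1.18 TPM). A list of 15 late neutrophil genes held 23.5%, 15.9% and 19.5% of the TPM of DIC 1 to 3, beside 4.34%, 12.9% and 3.11% for controls 1, 2 and 4. Control 2 was thus nearest to DIC on this measure, and values without it are given where a call or a count differs. Controls 1 and 4, which remain without it, lay farther from DIC on this measure, so calls made without control 2 are no separate support. All 15 of those genes had positive fold changes, and 12 of them were higher in every DIC library, beside 7.08% of all tested genes. Mmp8, Retnlg and Cxcr2 overlapped, at 13.3, 81.4 and 6.95 TPM in DIC 2 and 14.6, 109 and 9.13 TPM in control 2. All 12 genes of an erythroid list had positive fold changes too, and 2 of them were higher in every DIC library. The erythroid list held 0.0702% to 0.202% of TPM in DIC and 0.0555% to 0.0768% in control, with DIC 2 below control 2. All 7 tested B lineage genes had negative fold changes, with 0.0119% to 0.0232% of TPM in DIC and 0.0237% to 0.0559% in control. Of these 7, 3 were lower in every DIC library, beside the same 18.4%. All 5 tested T and NK cell genes were negative too, and Ncr1 and Klrb1c were lower in every DIC library (2 of 5, beside the same 18.4%). Klrb1c reached 1 TPM in DIC 3 and the controls only. Cd3e, a defining marker of T cells, was too low to test (listed at 0 in DIC 2 and at most 1.57 TPM). Cd3d, Cd4 and Cd8a were also too low to test, and their means were higher in DIC (1.42, 0.727 and 0.227 TPM) than in control (0.743, 0.663 and 0.21 TPM). Of 6 primary granule genes 5 were negative as deposited and 2 when the late neutrophil genes were left out of the total, and of 10 macrophage and dendritic cell genes 6. The primary granule genes held 2.586% to 3.245% of TPM in DIC and 3.015% to 3.424% in control. Among them Mpo lay at 10030 to 13180 TPM and Elane at 10120 to 12690 TPM. Which cells carried the replication transcripts was not tested. Of 6 mast cell and basophil genes 5 had negative fold changes, with 0.0430% to 0.0596% of TPM in DIC and 0.102% to 0.346% in control. The late neutrophil genes were also left out of the total and their score used as a covariate, with the values given below. That score, the mean log2(TPM + 1), did not overlap between the groups, at 9.89 to 11.7 in DIC and 7.58 to 9.65 in control. With 6 libraries the covariate and the group therefore cannot be fully told apart, and the covariate values decide nothing about either. The part of the other lists in the differences was not tested.

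As deposited, the replication genes together took a smaller share of TPM in DIC, and no single gene passed the test. They made up 0.287%, 0.317% and 0.320% of the TPM of DIC 1 to 3 against 0.378%, 0.332% and 0.343% for controls 1, 2 and 4, so the groups did not overlap. Of the 30 genes, 22 had negative log2 fold changes (DIC minus control), against 58.5% of all tested genes. The median was -0.22 on the log2(TPM + 1) scale, beside -0.08 over all tested genes and -0.10 over the 9628 tested genes whose mean TPM fell within the range of these 30. With limma and Benjamini-Hochberg adjustment over all tested genes, 0 of 30 passed the threshold of 0.05 (adjusted p from 0.212 to 0.970), where 8 of all tested genes, 0.0593%, passed. At an unadjusted limma p under 0.05 there were 7 of 30, or 23.3%, beside 20.2% of all tested genes, a share near that background. All 7 were lower in DIC, beside 13.8% of all tested genes that were lower at this p and 6.43% that were higher.

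For 10 of the 30 genes the highest DIC value was below the lowest control value, namely for Mcm3, Mcm4, Mcm6, Cdt1, Gins2, Rfc2, Lig1, Prim1, Ung and E2f1. Over all tested genes this held for 18.4%, and for 20.7% of those in the same TPM range. No member (0 of 30) lay higher in every DIC library, beside 7.08% of all tested genes. Without control 2 the count was 15 lower, beside 30.9% of all tested genes, and 1 higher, beside 19.2%.

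**Figure D1:**
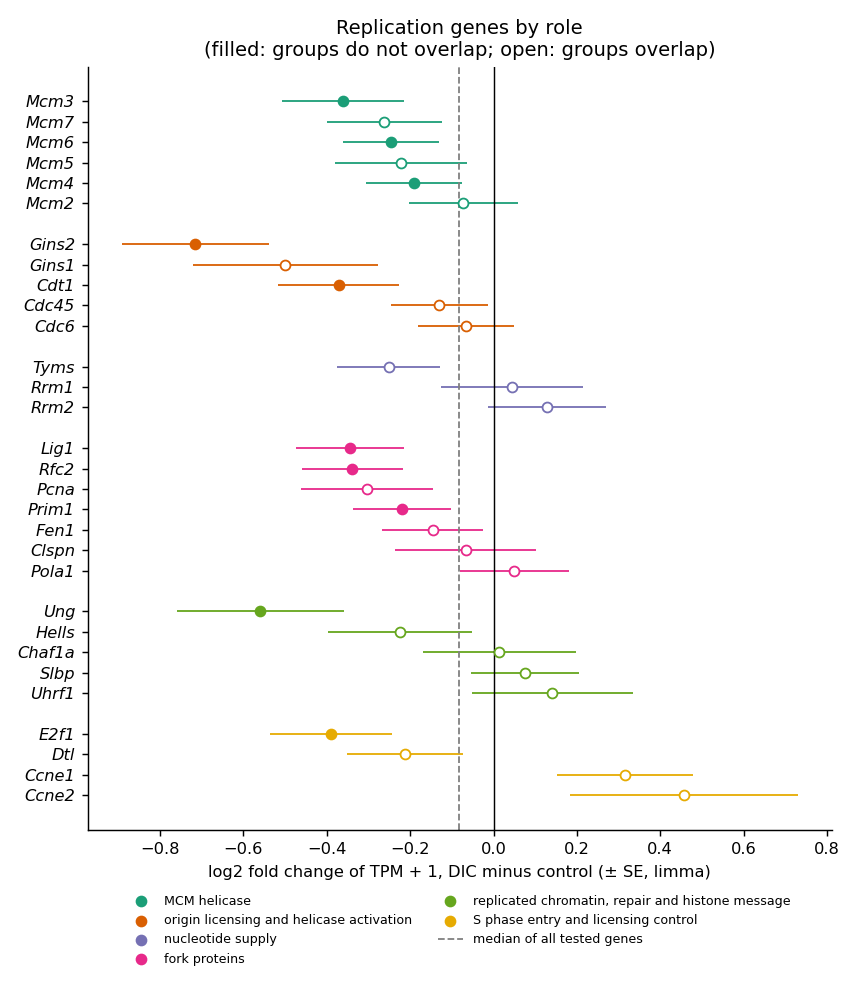
The log2 fold change of TPM + 1 (horizontal axis, DIC minus control, with limma SE) is plotted for each of the 30 genes in 6 role groups, with filled points where the 3 DIC and 3 control libraries do not overlap. All 11 MCM and origin genes lie left of 0 on the deposited scale, of which 7 do when the late neutrophil genes are left out of the total, and the cyclin E genes Ccne1 and Ccne2 lie farthest right at 0.32 and 0.46.

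The lower share depended on what the values were scaled to. When the late neutrophil genes were left out of the total, the same 30 genes took 0.376%, 0.377% and 0.398% of the remaining TPM in DIC and 0.395%, 0.381% and 0.354% in control. On that scale the groups overlapped, at 0.384% ± 0.0125 in DIC and 0.376% ± 0.0209 in control (SD, with n = 3 per group). The rescaling raised the median of all tested genes by 0.19 and put the median of the 30 genes at -0.01. Relative to the median of all tested genes, the members lay at -0.13 as deposited, at -0.12 after rescaling and at 0.0057 after quantile normalization. With the late neutrophil score as a covariate their median was -0.06, and 21 of 30 had negative fold changes. After the rescaling without late neutrophil genes, 16 of 30 had negative fold changes, where the median of all tested genes had itself risen by 0.19. The share of all tested genes that were negative on that scale is not given here. This count, and those by role and list below, therefore have no background on that scale. Mcm3, Gins2, Rfc2 and Ung stayed lower in every DIC library (4 of 30, beside 7.52% of all tested genes), and Rrm2, Pola1 and Ccne1 became higher in every one (3 of 30, beside 13.6%). None of these 7 passed the test after rescaling (limma adjusted p from 0.267 to 0.534).

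**Figure D2:**
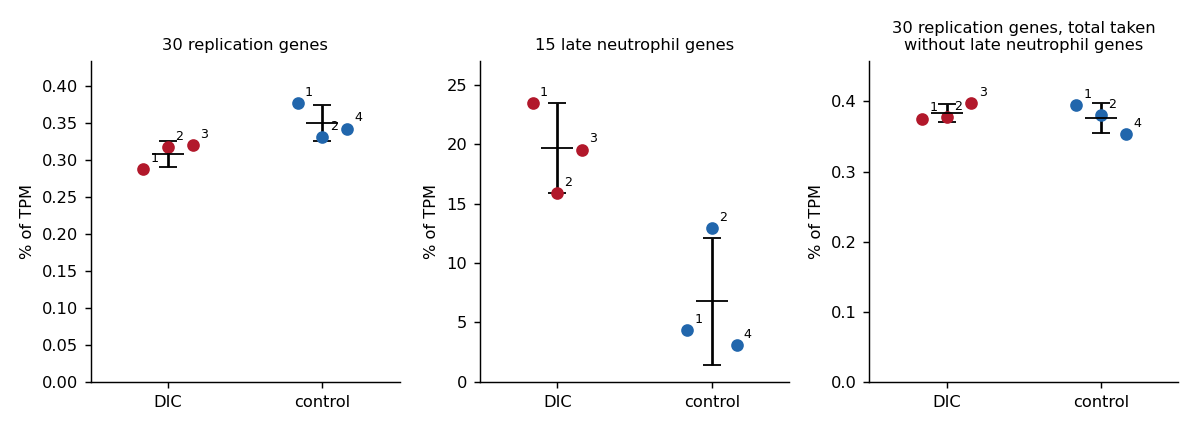
Each point is 1 library, numbered as in the table, with the mean and SD of 3 libraries per group; the vertical axes give the percent of TPM. The 30 replication genes take 0.287% to 0.320% in DIC and 0.332% to 0.378% in control (left), the late neutrophil genes 15.9% to 23.5% and 3.11% to 12.9% (middle), and with the latter left out of the total the replication genes overlap at 0.376% to 0.398% and 0.354% to 0.395% (right).

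What these genes share in sequence was read from their promoters, because E2F is the factor known for switching on this programme. RefSeq windows of GRCm38.p6, an earlier assembly than the submitters' GRCm39, were found for 25 of the 30 genes, and none for Mcm4, Gins1, Gins2, Rfc2 and Ccne2. The 250 bases before each start were searched on both strands for the E2F letters TTTCCCGC, TTTGGCGC, TTTCGCGC and TTTGCCGC, with overlapping matches allowed. At least 1 match was present in 8 of the 25 genes (32.0%), beside 583 of all 27025 genes with a window (2.16%) and 1 of 22 mitosis genes (4.55%). The CCAAT box, read as CCAAT on either strand, was present in 16 of 25 (64.0%) against 37.5% of all genes, and in 19 of 22 mitosis genes (86.4%). A match is a description of letters and not a shown binding site, and windows with no match may hold other forms of the site. The stretches that carry the E2F letters follow from 5′ to 3′ on the gene's strand, ending at the start site at the latest, with the matched letters in capitals.
Mcm5 (chr8:75109330-75109393, plus strand): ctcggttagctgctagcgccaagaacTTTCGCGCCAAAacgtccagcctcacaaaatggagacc
Mcm6 (chr1:128359719-128359778, minus strand): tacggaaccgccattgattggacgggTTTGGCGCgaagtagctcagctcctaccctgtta
Mcm6 (chr1:128359778-128359841, minus strand): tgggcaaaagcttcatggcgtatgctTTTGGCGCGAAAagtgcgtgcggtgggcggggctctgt
Mcm7 (chr5:138172015-138172074, minus strand): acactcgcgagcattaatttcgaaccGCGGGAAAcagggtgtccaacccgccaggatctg
Cdc6 (chr11:98907987-98908046, plus strand): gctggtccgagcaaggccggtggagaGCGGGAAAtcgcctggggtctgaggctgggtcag
Pola1 (chrX:93632260-93632319, minus strand): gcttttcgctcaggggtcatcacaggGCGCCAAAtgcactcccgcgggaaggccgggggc
Hells (chr19:38930902-38930961, plus strand): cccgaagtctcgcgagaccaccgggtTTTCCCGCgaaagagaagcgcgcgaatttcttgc
Uhrf1 (chr17:56304102-56304161, plus strand): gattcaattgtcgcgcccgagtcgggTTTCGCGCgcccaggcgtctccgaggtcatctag
Dtl (chr1:191575545-191575578, minus strand): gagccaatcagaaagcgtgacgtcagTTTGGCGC
The matches lay between 8 and 185 bases before the start (counted to the first matched base). In Mcm5 and in the farther stretch of Mcm6 a pair of matches on opposite strands overlapped in 1 run of capitals. Of the genes with a window, E2F letters were found in 1 of 7 whose groups did not overlap (Mcm6) and in 7 of 18 whose groups overlapped.

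The MCM helicase is a ring of 6 different subunits, and all 6 genes had negative fold changes as deposited, from -0.36 for Mcm3 to -0.07 for Mcm2, of which Mcm2 and Mcm4 turned positive (0.14 and 0.02) when the late neutrophil genes were left out of the total. Mcm3 was at 186, 231 and 222 TPM in DIC 1 to 3 against 309, 242 and 271 TPM in controls 1, 2 and 4. The DIC libraries were all below the controls, but DIC 2 and control 2 lay close together (log2 fold change -0.36 ± 0.15 SE, limma adjusted p = 0.235). Mcm6 was at 199, 228 and 225 TPM in DIC against 273, 249 and 251 TPM in control. Its groups were also separate, and its difference of -0.25 ± 0.12 (SE) did not pass (limma adjusted p = 0.282). Mcm4 was at 83.9, 81.1 and 83.6 TPM in DIC against 104, 86.3 and 94.3 TPM in control, with the DIC libraries tightly grouped just below control 2 (limma adjusted p = 0.383). Mcm5 was at 167, 207 and 194 TPM in DIC against 263, 210 and 192 TPM in control. Its groups overlapped, since control 4 lay below DIC 2 and DIC 3 (log2 fold change -0.22 ± 0.16 SE, limma adjusted p = 0.446). Mcm7 averaged 178 ± 15.9 TPM in DIC and 215 ± 26.9 in control, and Mcm2 117 ± 8.90 and 123 ± 14.0 (SD, with n = 3 per group), both overlapping. DIC 1 was the lowest of the 6 libraries in 5 of these genes, all but Mcm4, and control 1 the highest in all 6.

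The subunits join the ring in equal numbers, yet their transcript levels were not equal. In each library the highest subunit exceeded the lowest, Mcm4, by 2.37-fold to 2.96-fold. Mcm3 and Mcm6 were the most abundant and Mcm2 and Mcm4 the least in every library. The ratio of Mcm3 to Mcm2, which a single factor per library leaves unchanged and which was chosen after the values were seen, was 1.74, 1.88 and 1.85 in DIC and 2.26, 1.96 and 2.49 in control. The groups did not overlap in this ratio, and with 3 libraries against 3 an exact permutation test cannot go below p = 0.1. Ratios of Gins1 to Gins2, Rrm2 to Rrm1, Ccne2 to Ccne1 and Cdt1 to Cdc6 were also computed, and in each the groups overlapped.

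**Figure D3:**
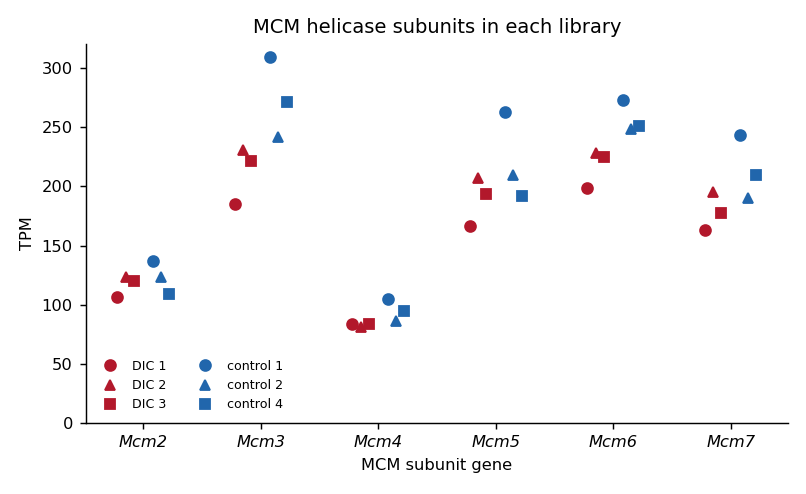
TPM of the 6 MCM subunit genes (vertical axis, from 0) in each of the 6 libraries, DIC in red and control in blue. Control 1 is the highest library for every subunit, and the DIC libraries lie below all controls for Mcm3, Mcm4 and Mcm6.

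Among the genes that load and activate the helicase, all 5 had negative fold changes as deposited, with a median of -0.37, of which Cdc6 and Cdc45 turned positive (0.14 and 0.08) after that rescaling, where the median was -0.16. Gins2, a GINS subunit, showed the largest difference of the 30 genes. It was at 34.2, 49.3 and 39.1 TPM in DIC 1 to 3 against 65.1, 58.8 and 78.5 TPM in controls 1, 2 and 4, with every DIC library below every control. Its DIC mean was 60.5% of the control mean (log2 fold change -0.72 ± 0.18 SE, limma adjusted p = 0.212). Cdt1, which brings the MCM ring to origins, was at 41.8, 51.9 and 49.1 TPM in DIC against 65.4, 53.3 and 67.1 TPM in control. The groups were separate, with control 2 next to DIC 2 (log2 fold change -0.37 ± 0.15 SE, limma adjusted p = 0.228). Gins1, another GINS subunit, was at 38.8, 38.2 and 43.1 TPM in DIC against 69.9, 39.6 and 66.5 TPM in control. Here control 2 lay among the DIC libraries and the other controls stood far above them (log2 fold change -0.50 ± 0.22 SE, limma adjusted p = 0.260). Cdc6, the partner of CDT1 in loading, averaged 41.7 ± 2.71 TPM in DIC and 43.7 ± 1.73 in control (SD, with n = 3 per group), an interval of -0.34 to 0.20 for the log2 difference (95%, limma). Cdc45, which activates the ring together with GINS, averaged 70.5 ± 5.14 and 77.2 ± 4.67 TPM, with overlapping groups.

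Without control 2, 3 of the 30 genes passed over all tested genes, where 12.4% of all tested genes did. These were Gins1 (log2 fold change -0.76 ± 0.11 SE, limma adjusted p = 0.0231), Gins2 (-0.81 ± 0.18 SE, limma adjusted p = 0.0448) and Pcna (-0.45 ± 0.11 SE, limma adjusted p = 0.0480). The share of 3 in 30 is near that background. Leaving out any other single library let 0 of the 30 pass.

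Of the fork proteins, 6 of 7 had negative fold changes as deposited, with a median of -0.22, and 4 of 7 after rescaling without the late neutrophil genes, with a median of -0.01. Pcna, the clamp that holds polymerases on DNA, was the most abundant of the 30 genes, at 274, 297 and 316 TPM in DIC against 395, 297 and 413 TPM in control. Control 2 sat within the DIC range, so the groups overlapped (log2 fold change -0.30 ± 0.16 SE, limma adjusted p = 0.316). Rfc2, a subunit of the complex that loads this clamp, was at 194, 239 and 209 TPM in DIC against 272, 261 and 277 TPM in control. It separated the groups, with the controls close together (log2 fold change -0.34 ± 0.12 SE, limma adjusted p = 0.216). Lig1, the ligase that joins the pieces of the lagging strand, was at 55.5, 70.0 and 64.1 TPM in DIC against 75.3, 79.7 and 86.0 TPM in control, again with no overlap (log2 fold change -0.35 ± 0.13 SE, limma adjusted p = 0.221). Prim1, the catalytic primase subunit, was at 68.7, 79.9 and 82.8 TPM in DIC against 88.8, 88.4 and 92.1 TPM in control. The groups were separate by a narrow gap (limma adjusted p = 0.325). Fen1, the nuclease that trims lagging-strand flaps, averaged 87.6 ± 5.13 TPM in DIC and 97.2 ± 9.30 in control. Pola1, the catalytic subunit of the polymerase that works with primase, averaged 19.4 ± 1.44 and 18.7 ± 0.96 TPM, and Clspn, the fork protein of the checkpoint, 14.9 ± 0.30 and 15.9 ± 3.20 (SD, with n = 3 per group). The groups of all 3 overlapped.

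Of the nucleotide supply genes 1 of 3 had a negative fold change, also after rescaling. Ribonucleotide reductase is made of a large subunit, Rrm1, and a small subunit, Rrm2, whose level is known to follow S phase. Rrm2 was at 229, 226 and 230 TPM in DIC against 234, 223 and 173 TPM in control. The DIC libraries were nearly equal and lay inside the control range, with control 4 lowest (log2 fold change 0.13 ± 0.14 SE, 95% interval -0.21 to 0.46, limma adjusted p = 0.633). Rrm1 averaged 152 ± 3.08 TPM in DIC and 149 ± 33.8 in control, and controls 1 and 4 were its highest and lowest libraries. Tyms, the thymidylate synthase gene, was at 148, 170 and 155 TPM in DIC against 202, 168 and 194 TPM in control. Only DIC 2 and control 2 crossed in Tyms (log2 fold change -0.25 ± 0.12 SE, limma adjusted p = 0.296).

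Genes of replicated chromatin and repair were mixed, with 2 of 5 negative and a median of 0.01 as deposited. After rescaling without the late neutrophil genes 2 of 5 were negative too, and the median was 0.22. Ung, which removes uracil from DNA, was the lowest of the 30 genes, at 2.65, 4.01 and 3.85 TPM in DIC against 6.11, 5.23 and 5.41 TPM in control. Every DIC library lay below every control (log2 fold change -0.56 ± 0.20 SE, limma adjusted p = 0.218), on a scale that understates changes of low genes. Hells, a chromatin remodeller, was at 28.3, 26.6 and 32.1 TPM in DIC against 28.2, 32.9 and 42.0 TPM in control, with overlap (limma adjusted p = 0.484). Uhrf1, which guides maintenance of DNA methylation at the fork, averaged 81.0 ± 9.27 TPM in DIC and 74.4 ± 16.9 in control. Chaf1a, a subunit of the histone chaperone CAF-1, averaged 17.8 ± 1.38 and 17.8 ± 3.70 TPM. Slbp, which binds the stem-loop of histone messages, averaged 253 ± 29.5 and 239 ± 15.4 TPM (SD, with n = 3 per group). In Uhrf1 and Chaf1a, control 4 was the lowest library.

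Of the regulators of S phase entry 2 of 4 had negative fold changes, also after rescaling. E2f1, an activating E2F factor, was at 27.5, 37.1 and 31.2 TPM in DIC against 45.4, 40.4 and 39.8 TPM in control, with no overlap (log2 fold change -0.39 ± 0.15 SE, limma adjusted p = 0.221). Ccne1, which encodes a cyclin E, was at 33.4, 26.9 and 34.7 TPM in DIC against 29.7, 23.3 and 23.0 TPM in control. DIC 2 lay below control 1, while DIC 1 and DIC 3 lay above all controls (log2 fold change 0.32 ± 0.16 SE, limma adjusted p = 0.315). Ccne2, the other cyclin E gene, was at 46.5, 37.7 and 56.7 TPM in DIC against 29.6, 50.3 and 25.2 TPM in control. Control 2 lay within the DIC range, while controls 1 and 4 were below it (log2 fold change 0.46 ± 0.27 SE, limma adjusted p = 0.376). Without control 2, Ccne2 differed by 0.74 ± 0.20 (SE) and did not pass (limma adjusted p = 0.0593). Dtl, which targets CDT1 for destruction in S phase, averaged 43.0 ± 4.26 TPM in DIC and 50.1 ± 6.11 in control, with overlap.

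The 30 genes did not vary as a block among the libraries. DIC 1 held the lowest value of all 6 libraries in 18 genes and control 1 the highest in 16. Control 4 held the highest value in 9 genes and the lowest in 7. In control 4, Gins1, Gins2, Hells and Clspn were high, while Rrm1, Rrm2, Uhrf1, Chaf1a and Ccne2 were low. Control 2 was the lowest of the controls in 14 genes and the highest in 3. Control 4 was the lowest of them in 13 and the highest in 9, and control 1 the lowest in 3 and the highest in 18.

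**Figure D4:**
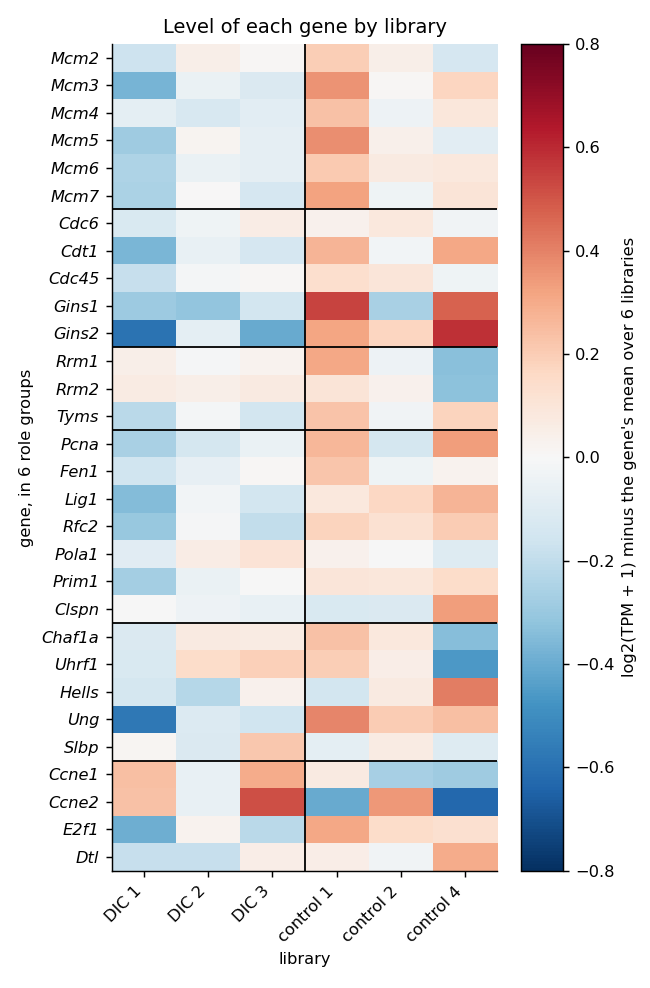
Colour gives log2(TPM + 1) of each gene (rows, in the 6 role groups, separated by lines) in each library (columns, DIC left and control right) minus that gene's mean over the 6 libraries. DIC 1 is blue for most genes, control 1 red, and control 4 is red for Gins2 and blue for Ccne2.

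A list of 98 further genes of replication, listed with earlier results of these data known, also had 0 past the threshold (limma, Benjamini-Hochberg), with 19 of 98 at an unadjusted p under 0.05, beside 20.2% of all tested genes. Lower in every DIC library were 23 of 98, beside 18.4% of all tested genes, and higher in every one were 6, beside 7.08%. Among 28 other polymerase and fork genes, 20 were negative as deposited (median -0.18) and 11 after rescaling without the late neutrophil genes (median 0.03), and 8 of 28 were lower in every DIC library as deposited (18.4% of all tested genes). Pold4, a small subunit of the lagging-strand polymerase, averaged 38.3 ± 3.83 TPM in DIC and 55.3 ± 5.83 in control, and Rfc3, another clamp loader subunit, 66.5 ± 5.09 and 85.8 ± 7.66 (SD, with n = 3 per group; limma adjusted p = 0.212 and 0.213). Among 18 other nucleotide genes, 14 were negative (median -0.30), 12 after that rescaling (median -0.09), and 8 of 18 were lower in every DIC library as deposited (against the same 18.4%). The kinase gene Nme2 was at 111, 160 and 136 TPM in DIC against 385, 178 and 378 TPM in control, so that control 2 stood near DIC (limma adjusted p = 0.212). Dctpp1, which clears unwanted nucleotides, averaged 95.8 ± 15.4 and 150 ± 27.1 TPM (limma adjusted p = 0.212).

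Of 18 other licensing and firing genes 10 were negative (median -0.06), and 3 after rescaling (median 0.15). Orc6, of the origin recognition complex, averaged 74.4 ± 6.14 TPM in DIC and 99.1 ± 14.5 in control, and Gins4, another GINS subunit gene, 55.5 ± 5.65 and 65.9 ± 4.41 (limma adjusted p = 0.216 and 0.308). Of 18 chromatin and repair genes 11 were negative (median -0.04), and 5 after rescaling (median 0.17). The histone chaperone gene Asf1a averaged 102 ± 6.22 TPM in DIC and 141 ± 29.7 in control (limma adjusted p = 0.233). Of 16 S phase entry regulators 5 were negative (median 0.15), and 1 after rescaling (median 0.36). E2f2, another activating E2F factor, was at 17.4, 13.0 and 13.6 TPM in DIC against 7.40, 9.88 and 6.70 TPM in control, higher in every DIC library, where E2f1 was lower in every one as deposited (log2 fold change 0.81 ± 0.20 SE, limma adjusted p = 0.212). Cdkn1a, which encodes the inhibitor p21, was at 6.48, 9.33 and 9.67 TPM in DIC, at 11.1 in control 2 and at 55.4 and 78.9 in controls 1 and 4 (limma adjusted p = 0.212).

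Mitosis genes, the nearest other stage of the cycle, are given for comparison. Of 25 such genes 10 were negative, with a median of 0.13, 0 were lower and 6 higher in every DIC library, beside 18.4% and 7.08% of all tested genes. None passed the limma test (0 of 25 at the adjusted threshold), and 2 of 25 had an unadjusted p under 0.05, beside 20.2% of all tested genes. After rescaling without the late neutrophil genes, 2 of 25 mitosis genes were negative and 14 higher in every DIC library (13.6% of all tested genes), with a median of 0.34, where the replication genes had -0.01 and all tested genes 0.11. Top2a, a topoisomerase that untangles copied chromosomes, averaged 131 ± 7.92 TPM in DIC and 103 ± 5.65 in control, and the proliferation marker Mki67 49.5 ± 4.91 and 36.6 ± 4.90 (SD, with n = 3 per group; limma adjusted p = 0.212 and 0.213). The difference between the mitosis and replication lists was not tested.

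Transcript length moved with the group difference across the whole table. In 5 classes of equal gene number by exonic length, the median log2 fold change of all tested genes ran from -0.24 in the shortest class (up to 1454 bases) through -0.19, -0.09 and -0.02 to 0.05 in the longest (from 5022 bases). The share of genes lower in every DIC library ran from 28.1% in the shortest class to 8.43% in the longest. The replication genes have a median exonic length of 3286 bases, and 19 of the 30 fall into the third and the fourth class. In the third class the 10 members had a median of -0.24 against -0.09 for all genes, and in the fourth the 9 members had -0.21 against -0.02. In the second class the 6 members had -0.18 against -0.19, and the 1 member of the shortest, Gins1, had -0.50. The 4 members of the longest class, Clspn, Pola1, Chaf1a and Hells, had a median of -0.03. With genes of like length centred together in each library, a step added after seeing the data, the median of the 30 genes was -0.14, and -0.13 relative to the median of all genes. The mitosis genes have a median exonic length of 3402 bases. Those higher in every DIC library as deposited had 3668 (Bub1b) to 11130 bases (Cenpf). Others of such length overlapped, among them Cdk1 (4466 bases) and Cenpe (7910 bases). The part of length in the mitosis values was not tested.

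**Figure D5:**
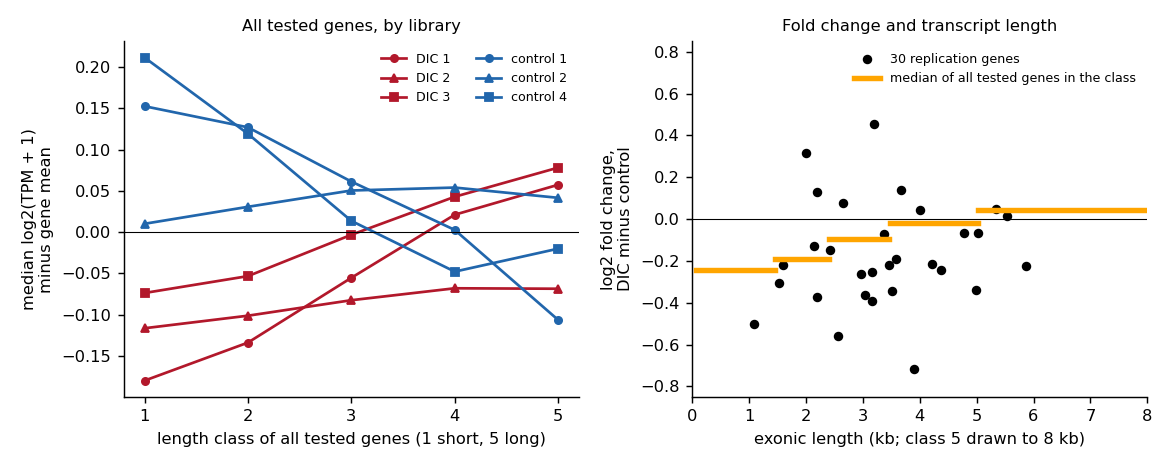
Left, the median of log2(TPM + 1) minus each gene's mean over 6 libraries (vertical axis) in 5 length classes of all tested genes, 1 line per library: controls 1 and 4 are highest for short genes at 0.15 and 0.21 and DIC 1 lowest at -0.18. Right, the log2 fold change of the 30 replication genes (points) against exonic length in kilobases, with the median of all tested genes in each class as a bar; most points in the third and the fourth class lie below the bar.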

How the data were processed

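The authors deposited 1 table of TPM values per gene for 6 libraries. Per the submitters' processing notes, fastp 0.19.5, HISAT2 2.1.0, StringTie 2.1.2 and the build GRCm39 were used. Which annotation release they used: not given in the sources used here. TPM is scaled to the same total in each library and keeps no depth, so no counting interval could be given.

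The design gives 3 mice and the labels 3 libraries per group, without tying each library to 1 mouse, so a p-value covers only the spread among these libraries, which may be technical. The column names ctrl2_1 and ctrl2_4 fit 1 sample by its title and its description, so they were assigned to the control group only. No column name matches the third control sample by title or description, so which control sample each of these columns holds is not certain. Libraries were distinct (pairwise correlations of log2 values from 0.907 to 0.964).

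Symbols were matched by Ensembl identifier (GENCODE M21, GRCm38) for 52081 rows, and all 232 entries of the gene lists found a row. The test took genes that reached 1 TPM in 3 or more libraries: log2(TPM + 1) was fitted with limma 3.58.1 (R 4.3.3, trend on), comparing the groups without covariates, two-sided, with Benjamini-Hochberg adjustment over all tested genes at 0.05. Fold changes on this scale understate low genes. The fit was tested on simulated data with independent noise and changes of at least 1 log2 unit. These were larger than any fold change of the members, so that test does not bear on differences of their size. Exonic length is the union of a gene's exons in GENCODE M21, known for 94.6% of tested genes. Promoter windows came from RefSeq.

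The members and lists were chosen with earlier results of these data known. All 30 members are named; values by library are given where groups do not overlap, for the 2 lowest p per role, and for Pcna, Mcm5, Rrm2, Tyms, Ccne1 and E2f1, and further lists are shown by their 2 lowest p. A gene that this rule names is not reported here. Gins1 and Ccne2 are also given by library, a choice made after seeing their values. Alternatives covered the pseudocount, filter, scaling, trend, a covariate, a replicate block, transcript length and each library left out.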

Additional observations from a re-analysis of the deposited data

How the results depend on the processing

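The 30 genes kept their direction and stayed short of the threshold with a pseudocount of 0.1, a filter of 5 TPM, no filter and no mean-variance trend. The count over the whole table, 8, was 5 with the pseudocount of 0.1 and 0 both with no filter and with the late neutrophil score as a covariate. The median of the 30 genes, -0.22, was -0.031 after quantile normalization, -0.0062 after rescaling without late neutrophil genes, -0.0026 after rescaling also without primary granule, erythroid and mitochondrially encoded genes, and -0.061 with the covariate. Genes lower in every DIC library, 10 of 30, were then 2, 4 and 2 under the 3 scalings, and genes higher in every DIC library, 0 of 30, were 2, 3 and 3, and 2 when centred by transcript length. Over all tested genes, 18.4% were lower and 7.08% higher as deposited, and 7.52% and 13.6% after rescaling without late neutrophil genes. The background thus moved with the setting, and without its share a count is no result about the members. For quantile normalization, the wider rescaling and the centring by length this share is not given here. Their counts are therefore no result about the members. Fold changes that turned sign after quantile normalization were Mcm2 0.11, Cdc6 0.047, Cdc45 0.014 and Fen1 0.011. After rescaling without late neutrophil genes they were Mcm2 0.14, Mcm4 0.021, Cdc6 0.14, Cdc45 0.081, Fen1 0.065 and Clspn 0.13. With the wider rescaling they were Mcm2 0.14, Mcm4 0.025, Cdc6 0.15, Cdc45 0.084, Fen1 0.069, Clspn 0.14 and Dtl 0.00021. With the covariate they were Mcm7 0.026, Cdt1 0.023, Gins1 0.029, Rrm1 -0.063, Rrm2 -0.059, Tyms 0.022, Pcna 0.082, Clspn 0.15, Chaf1a -0.074, Slbp -0.14 and Ccne2 -0.41. Centred by length they were Cdc45 0.026, Pola1 -0.00040, Prim1 0.0037 and Chaf1a -0.036.

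Only numbers 1 and 2 occur in both groups, with no shared source given in the labels, and same-numbered libraries did not deviate together (correlations -0.068 and -0.10). With a replicate block 0 of 30 passed, the count over the whole table was 8, the median was -0.21, and the signs turned of Rrm1 -0.12, Rrm2 -0.010, Pola1 -0.030, Clspn 0.096, Chaf1a -0.18, Uhrf1 -0.11 and Slbp -0.046.

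Leaving out each library in turn, on the same tested genes, gave 0 to 1671 genes past the threshold over the whole table. The 1671 came without control 2, 20 came without DIC 2, and 0 came without DIC 1 and without control 4. Members past it ran from 0 to 3, with 3 only without control 2. Members lower in every DIC library ran from 10 to 15, members higher from 0 to 3, and the median from -0.25 to -0.16. The 15 came without control 2, where 30.9% of all tested genes were lower in every DIC library, beside 18.4% with all libraries. Without control 2, 19.2% of all tested genes were higher in every DIC library, beside 7.08% with all libraries. For the other runs these shares are not given here, so their counts are no result about the members. Signs turned for Chaf1a (-0.15 to 0.14), Slbp (-0.013 to 0.15), Mcm2 (-0.16 to 0.0069), Rrm1 (-0.11 to 0.21), Rrm2 (-0.0050 to 0.21), Clspn (-0.14 to 0.084) and Uhrf1 (-0.054 to 0.27). The cause of these changes was not tested. TPM keeps no depth, so the counting error of low genes such as Ung is unknown.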
